A study of Mus musculus with 57 samples.

Results

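Lithium was set directly against fluoxetine in the prefrontal cortex of mice heterozygous for Shank2, with 10 libraries of lithium-treated and 10 of fluoxetine-treated heterozygotes, 20 of the 57 libraries of the series. The libraries were chosen by genotype and drug as labelled, and no vehicle library entered the difference itself. Shank2 encodes a scaffold protein of the postsynaptic density at excitatory synapses, and the mice carried 1 mutant copy on a C57BL/6N background. Pups took up the drug by nursing from a treated dam for 3 weeks (postnatal days 3 to 24), and the cortex was taken on day 25. The heterozygous lithium group and the heterozygous fluoxetine group each held 5 females and 5 males, and poly(A) RNA was measured in each library. The labels state neither litter nor dose, nor whether a library came from a single mouse. The wild type comparison that stands beside the results had 9 lithium and 10 fluoxetine libraries and shares no library with the heterozygous one.

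Lithium is a mood stabilizer that inhibits glycogen synthase kinase 3 (GSK3), the kinase that marks beta-catenin for destruction, and the phosphatases that recycle inositol. Fluoxetine is an antidepressant that blocks the serotonin transporter on the endings of serotonin neurons. Cholesterol in the brain is made locally, and when cells hold little of it the transcription factor SREBP2 raises most enzymes of the pathway at once. Glucocorticoid hormones act through the nuclear receptor Nr3c1, which binds DNA and raises genes such as Sgk1, Fkbp5 and the metallothioneins. Growth factor signals that pass through the kinase ERK raise its own inhibitors, among them Dusp6 and Spry4.

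Summed over genes, the normalized values came to between 30994100 and 32826900 per library, and 0 libraries went against their sex label. Shank2 averaged 4486 ± 362 in lithium and 4288 ± 307 in fluoxetine heterozygotes (SD, n = 10 each). Its 30 heterozygous libraries ran from 3877 to 5006, and the 27 wild type libraries from 6762 to 11791. The library HT fluoxetine male 3 stood apart from the other 19. On the first principal component, with 14.7% of the variance, it lay at 63.2 and the others between -20.2 and 13.3. Its median correlation with the other libraries was 0.971, against 0.981 to 0.987. It had the lowest microglial, endothelial and blood marker levels of the 20. Its neuronal, oligodendrocyte precursor, mural, leptomeningeal and striatal marker levels were the lowest of the 20 as well. Results that turn on it are given with and without it.

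Markers of the neighbouring olfactory bulb also differed among the libraries. Their mean level, on a log2 scale about the mean of the series, was -0.41 ± 0.82 in lithium and 0.38 ± 0.58 in fluoxetine heterozygotes (SD, n = 10 each), and lay above 0 in 2 of 10 lithium and 8 of 10 fluoxetine libraries. The difference was -0.80 (2-sided permutation test, p = 0.0239, 0.121 after adjustment over 14 levels). Eomes, a transcription factor of mitral and tufted cells, had a median of 6.9 in lithium and 197 in fluoxetine libraries, with ranges of 1.84 to 827 and 12.3 to 627. Striatal markers ran from -0.63 to 1.20 in lithium and from -0.67 to 1.60 in fluoxetine libraries (difference -0.41, permutation p = 0.25). The median log2 difference of the striatal genes was -0.72 in females and 0.14 in males. For oligodendrocyte genes it was -0.45 in females and 0.11 in males, with 18 of 20 negative over both sexes and 0 called. In bulk tissue, fewer cells of a type and less RNA per cell cannot be told apart.

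**Figure D1:**
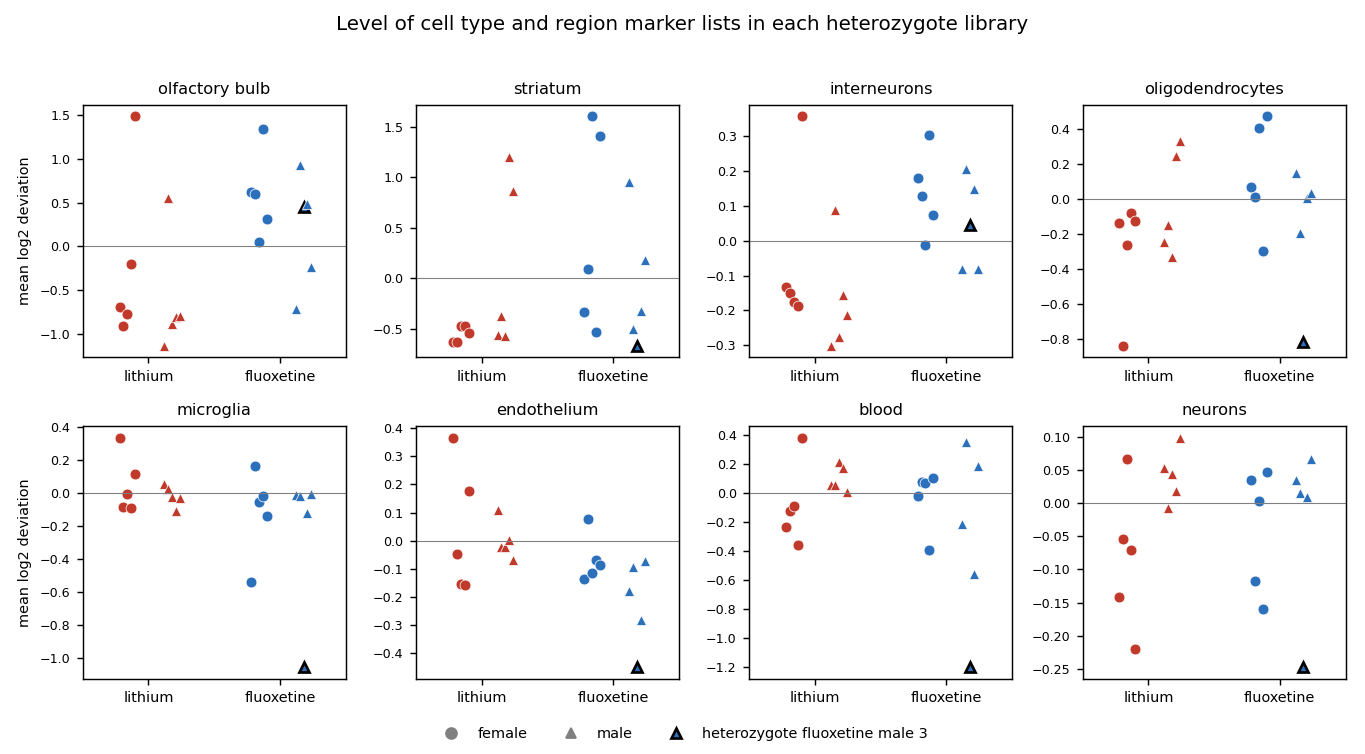
Mean level of the marker genes of each cell type or neighbouring tissue in every heterozygous library, in log2 units about the mean of the series, with lithium left of fluoxetine. HT fluoxetine male 3 has the lowest microglial, endothelial, blood, neuronal and striatal levels. For the olfactory bulb, 2 of 10 lithium against 8 of 10 fluoxetine libraries lie above 0.

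Stretches of promoter are shown for 4 genes of the comparisons below, because each holds a motif that was searched. The E-box is shown as a sequence only and is not tied to a factor named above. They are the 250 bases upstream of the transcription start in RefSeq (GRCm38.p6), 5′ to 3′ on the strand of the gene, with the motif in capitals. Hmgcs1 (chr13:119690101-119690350, plus strand) holds TCACNCCAC, a sterol regulatory element, 137 bases before the start. Insig1 (chr5:28071162-28071411, plus strand) and Sc5d (chr9:42264301-42264550, minus strand) hold the E-box CACGTG at 101 and 98 bases before it. Sgk1 (chr10:21993640-21993889, plus strand, 1 of its 6 listed promoters) holds the palindromic glucocorticoid element, spelled by its capitals, at 189 bases before it, and also CACGTG, left in lower case, nearer its 5′ end.
Hmgcs1: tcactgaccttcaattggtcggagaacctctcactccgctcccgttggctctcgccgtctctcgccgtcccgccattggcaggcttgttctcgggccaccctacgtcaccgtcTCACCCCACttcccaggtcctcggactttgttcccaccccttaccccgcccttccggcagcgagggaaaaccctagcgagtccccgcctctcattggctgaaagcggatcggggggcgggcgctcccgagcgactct
Insig1: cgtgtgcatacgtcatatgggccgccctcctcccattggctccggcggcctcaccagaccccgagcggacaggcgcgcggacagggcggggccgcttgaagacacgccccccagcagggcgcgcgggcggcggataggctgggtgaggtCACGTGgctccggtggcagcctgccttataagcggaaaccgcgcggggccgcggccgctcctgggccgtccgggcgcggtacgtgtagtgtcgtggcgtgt
Sc5d: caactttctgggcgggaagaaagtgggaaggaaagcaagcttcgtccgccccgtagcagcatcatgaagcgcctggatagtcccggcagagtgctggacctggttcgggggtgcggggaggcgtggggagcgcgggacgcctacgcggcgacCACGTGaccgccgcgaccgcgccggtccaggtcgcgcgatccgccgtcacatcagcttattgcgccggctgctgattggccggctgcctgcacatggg
Sgk1: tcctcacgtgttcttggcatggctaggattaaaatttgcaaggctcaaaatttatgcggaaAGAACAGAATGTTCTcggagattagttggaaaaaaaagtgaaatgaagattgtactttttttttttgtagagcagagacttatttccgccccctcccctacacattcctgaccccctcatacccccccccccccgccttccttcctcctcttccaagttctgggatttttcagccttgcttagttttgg

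Across 300-base windows around the start sites of 12086 tested genes, searched on both strands, 8 motifs were counted in called genes and in all genes. Windows were at hand for 65 of the 96 higher and 64 of the 81 lower genes. The glucocorticoid element occurred in 1 of 15489 windows, the Sgk1 window shown. The E-box occurred in 12.6% of windows of genes higher under lithium, in 12.6% of windows of genes lower under lithium, and in 9.32% of all windows. Of the 14 cholesterol genes that rose, 9 had a window, and 3 of these 9 windows held the E-box. Over the whole cholesterol list, 4 of 21 windows held it (19%). The cyclic AMP response element TGACGTCA occurred in 6.9% of windows of higher genes, 2.3% of those of lower genes and 2.81% of all windows. The AP-1 site TGANTCA occurred in 4.6% of windows of higher genes, 9.2% of those of lower genes and 5.13% of all windows. The FOXO site GTAAACA (3.45%, 2.3% and 2.55%), the TCF/LEF site CTTTGAT (0%, 2.3% and 2.5%) and the antioxidant element TGACNNNGC (13.8%, 12.6% and 13.8%) are given for higher, lower and all genes. The sterol element was searched after the values were seen. It was found in 1 of the 9 windows of cholesterol genes that rose, and in 1.13% of all windows. A match is a description of the letters and not of binding.

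Over both sexes, 177 of 16659 genes tested differed between lithium and fluoxetine heterozygotes at an adjusted p under 0.05 (limma with Benjamini-Hochberg adjustment), which is 1.06%. Under lithium 96 genes were higher (0.576%) and 81 were lower (0.486%). With no vehicle in the comparison, a difference cannot be assigned to either drug, and higher, lower, rise and fall describe lithium relative to fluoxetine. Differences were small. The median size among the 177 was 0.27 on the log2 scale, and the median over all genes tested was -0.0006. The higher genes were led as a group by enzymes of cholesterol synthesis, by Ccnd1 and by the ERK feedback genes Dusp6 and Spry4. The lower genes included Reln, Frat1 and 8 targets of glucocorticoids, among them Cebpd and Sgk1. Of these 8 targets, 1 passed without HT fluoxetine male 3. The 12 largest rises among genes with established names ran from 0.43 (Idi1) to 0.78 (Cyp2r1), and the 12 largest falls from -0.59 (Xrcc3) to -2.03 (Chrna10).

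The calls rest on few libraries in part. With each of the 20 libraries left out in turn, 39 of the 177 genes (22%) passed every time. The count was 53 without HT fluoxetine male 3, of which 50 were among the 177, and 493 without HT fluoxetine male 5.

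Cholesterol synthesis was the gene group with the most members called. Of its 26 genes, 14 were higher under lithium and 0 were lower, which is 53.8% against 0.576% of all genes called higher. The lists were chosen with earlier results of these data known, so these shares describe the values and are not a test. The log2 difference was positive for 24 of 26, with a median of 0.26. The members that were higher act at early and at late steps of the route.

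At the entry of the pathway stands Hmgcs1, the cytosolic HMG-CoA synthase (ENSMUSG00000093930, chromosome 13, 119690379 to 119708260). Its normalized value ran from 10420 through a median of 12198 to 14766 in lithium libraries, and from 4791 through 9393 to 11524 in fluoxetine libraries. The groups overlapped, with 7 of 10 lithium libraries above every fluoxetine library. The log2 difference was 0.42 ± 0.08 (SE, adjusted p = 0.00621 by limma).

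Idi1, the isomerase that makes the second isoprene unit (ENSMUSG00000058258, chromosome 13, 8885501 to 8892451), ran from 1777 through 1960 to 2516 under lithium and from 928 through 1527 to 1778 under fluoxetine. All but 1 lithium library lay above every fluoxetine library. Its log2 difference was 0.43 ± 0.08 (adjusted p = 0.00314). Fdps, which joins isoprene units into farnesyl diphosphate, differed by 0.27 ± 0.06 (adjusted p = 0.0224).

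Of the enzymes that make and finish the sterol ring, Sqle, the squalene epoxidase, averaged 2465 ± 259 under lithium and 1930 ± 308 under fluoxetine (log2 difference 0.36, adjusted p = 0.00374). Cyp51, the lanosterol demethylase, averaged 2494 ± 268 under lithium and 1945 ± 337 under fluoxetine (0.38, adjusted p = 0.00199). Msmo1 (0.39), Nsdhl (0.30), Hsd17b7 (0.26) and Sc5d (0.26), which act after Cyp51, also passed. Acat2, an acetoacetyl-CoA thiolase, had the smallest rise of the group at 0.18 (adjusted p = 0.0476).

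Stard4, a carrier that moves cholesterol between membranes, had the largest difference of the list at 0.52 ± 0.10 (adjusted p = 0.00299). It averaged 1164 ± 159 under lithium and 833 ± 196 under fluoxetine (SD, n = 10 each). Insig1, which holds SREBP in the endoplasmic reticulum when sterols are plentiful, rose by 0.27 (adjusted p = 0.0366). Srebf2, the gene of SREBP2, differed by 0.18 without passing (adjusted p = 0.0992). In the fatty acid branch, 1 of 15 genes passed, which is 6.67% against 1.06% of all genes. It was the desaturase Scd1 (0.32, adjusted p = 0.0353), and the median of the branch was 0.10.

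**Figure D2:**
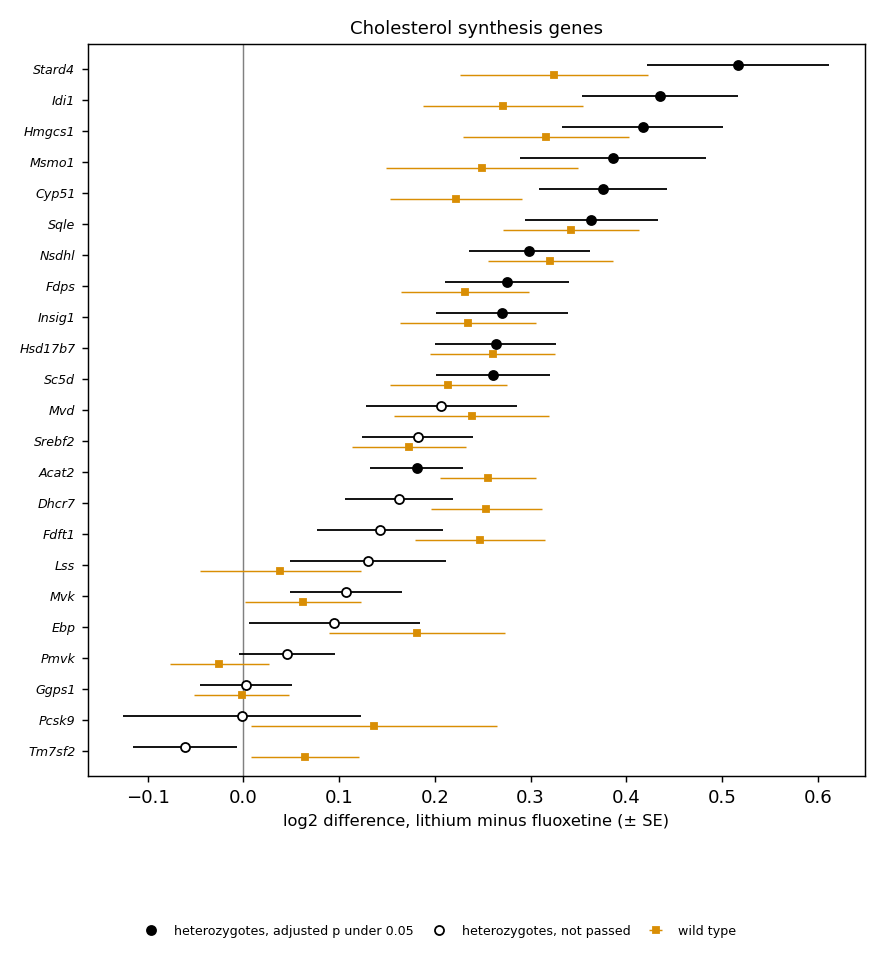
Log2 difference, lithium minus fluoxetine, with its SE for 23 of the 26 genes of cholesterol synthesis. Circles are heterozygotes (filled where the adjusted p was under 0.05) and squares are wild type. The 12 filled circles all lie right of 0, and most wild type squares do too.

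In females the median of the cholesterol list was 0.10 and in males 0.40, and no gene tested passed for the difference between the sexes. HT fluoxetine male 3 was the lowest fluoxetine library for Stard4, Idi1, Hmgcs1, Cyp51, Sqle and Nsdhl. Without it the median was 0.20, and 9 of 26 were higher. With each library left out in turn, 8 of the 14 passed every time, and between 8 and 17 of the list were called. The fewest, 8, were called without HT fluoxetine female 1, and 9 without HT lithium male 4. Msmo1, Fdps, Insig1, Hsd17b7, Sc5d and Acat2 lost the call in some runs, and of these Sc5d alone passed without HT fluoxetine male 3 (adjusted p = 0.0466). Scd1 had an adjusted p of 0.112 there. A fit of the 20 libraries alone called 1 of the list and 30 genes in all. Wild type mice gave a list median of 0.24, with 6 of 26 genes higher under lithium. In wild type, 0.132% of all genes were called higher.

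Ccnd1, cyclin D1, a cell cycle gene and a known target of beta-catenin, had the smallest adjusted p of the comparison (ENSMUSG00000070348, chromosome 7, 144929931 to 144939925). Its value ran from 1044 through 1294 to 1483 in lithium libraries and from 684 through 890 to 1095 in fluoxetine libraries, and 8 of 10 lithium libraries lay above every fluoxetine library. The log2 difference was 0.47 ± 0.07 (adjusted p = 0.000205), 0.42 in females and 0.51 in males. It passed with each library left out in turn and under every other setting tried except the replicate block.

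Of 15 beta-catenin targets Ccnd1 alone passed, which is 6.67% against 1.06% of all genes, with a list median of 0.10. The 14 others ran from -1.10 to 0.34. Axin2, the feedback inhibitor most used as a readout of this pathway, differed by 0.01 (adjusted p = 0.97). Mycn (0.34, adjusted p = 0.0629) and Tnfrsf19 (0.18, adjusted p = 0.0513) did not pass. None of 33 genes of the GSK3 and beta-catenin pathway was called, which in a list this short is near the share of all genes. Frat1, which encodes a protein that binds GSK3 and keeps it from its substrates, was named after its values were seen. It averaged 204 ± 22.9 under lithium and 290 ± 36.8 under fluoxetine (SD, n = 10 each; log2 difference -0.51 ± 0.09, adjusted p = 0.00299). In wild type Frat1 was also lower under lithium (-0.47, adjusted p = 0.0169). With striatal and olfactory bulb marker levels in the fit it differed by -0.34 in heterozygotes (adjusted p = 0.0483).

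No direct target of the drugs that was tested passed. Of 9 tested lithium targets 0 were called, against 1.06% of all genes. In lists this short, 0 calls is near the share of all genes. The kinase genes Gsk3a and Gsk3b differed by -0.01 (adjusted p = 0.94) and 0.12 (adjusted p = 0.257). The inositol phosphatase genes Impa1, Impa2 and Inpp1 differed by 0.01, -0.30 and -0.14, and Bpnt1 by 0.06, none past the threshold. Of 21 serotonin genes 0 passed, again near the share of all genes. Tph2, the enzyme of serotonin neurons, averaged 16.9 ± 4.55 under lithium and 15.7 ± 4.51 under fluoxetine. Slc6a4, the transporter that fluoxetine blocks, fell under the minimum mean of 10 and was not tested. Its median was 2.81 in lithium and 5.33 in fluoxetine libraries, with ranges of 1.72 to 16.4 and 1.67 to 7.5.

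Dusp6, the phosphatase that switches ERK off (ENSMUSG00000019960, chromosome 10, 99263231 to 99267489), ran from 1879 through 2468 to 2743 under lithium and from 1144 through 1697 to 2312 under fluoxetine. The log2 difference was 0.51 ± 0.09 (adjusted p = 0.00314), with 0.51 in females and 0.51 in males. Spry4, an inhibitor of receptor signalling to ERK, averaged 496 ± 69.6 under lithium and 351 ± 57.7 under fluoxetine (0.50 ± 0.09, adjusted p = 0.00183), and passed in wild type too (0.40, adjusted p = 0.0377). Mapk3, the gene of ERK1 itself, was lower by -0.23 (adjusted p = 0.0279). Among 19 ERK pathway genes 2 were higher and 1 was lower (15.8% against 1.06% of all genes called), with a median of 0.11, and Spry2 just missed (0.22, adjusted p = 0.0506). Without HT fluoxetine male 3 Dusp6 and Spry4 passed (adjusted p = 0.00565 each) and Mapk3 did not (adjusted p = 0.0905).

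Bdnf, the neurotrophin released by active neurons (ENSMUSG00000048482, chromosome 2, 109674700 to 109727007), ran from 808 through 1035 to 1225 under lithium and from 679 through 752 to 982 under fluoxetine. The difference was 0.39 ± 0.09 (adjusted p = 0.0224). It passed in 18 of 20 runs with a library left out, and not without HT fluoxetine male 3 (adjusted p = 0.0624) or HT lithium male 3. The adjusted p was 0.106 with striatal and olfactory bulb marker levels in the fit. Bdnf was the 1 gene called of 22 neurotrophic factors and receptors, which is 4.55% against 1.06% of all genes. Immediate early genes, which neuronal activity switches on within minutes, had a positive difference in 26 of 34, with a median of 0.25, and 0 passed. Arc averaged 5050 ± 1336 under lithium and 3139 ± 1802 under fluoxetine (0.86, adjusted p = 0.0553). Egr2 (0.85, adjusted p = 0.0807) and Trib1 (0.36, adjusted p = 0.0519) did not pass either. The fluoxetine libraries were spread widely, with Arc from 1171 to 5523, and the lithium libraries ran from 3244 to 7252.

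**Figure D3:**
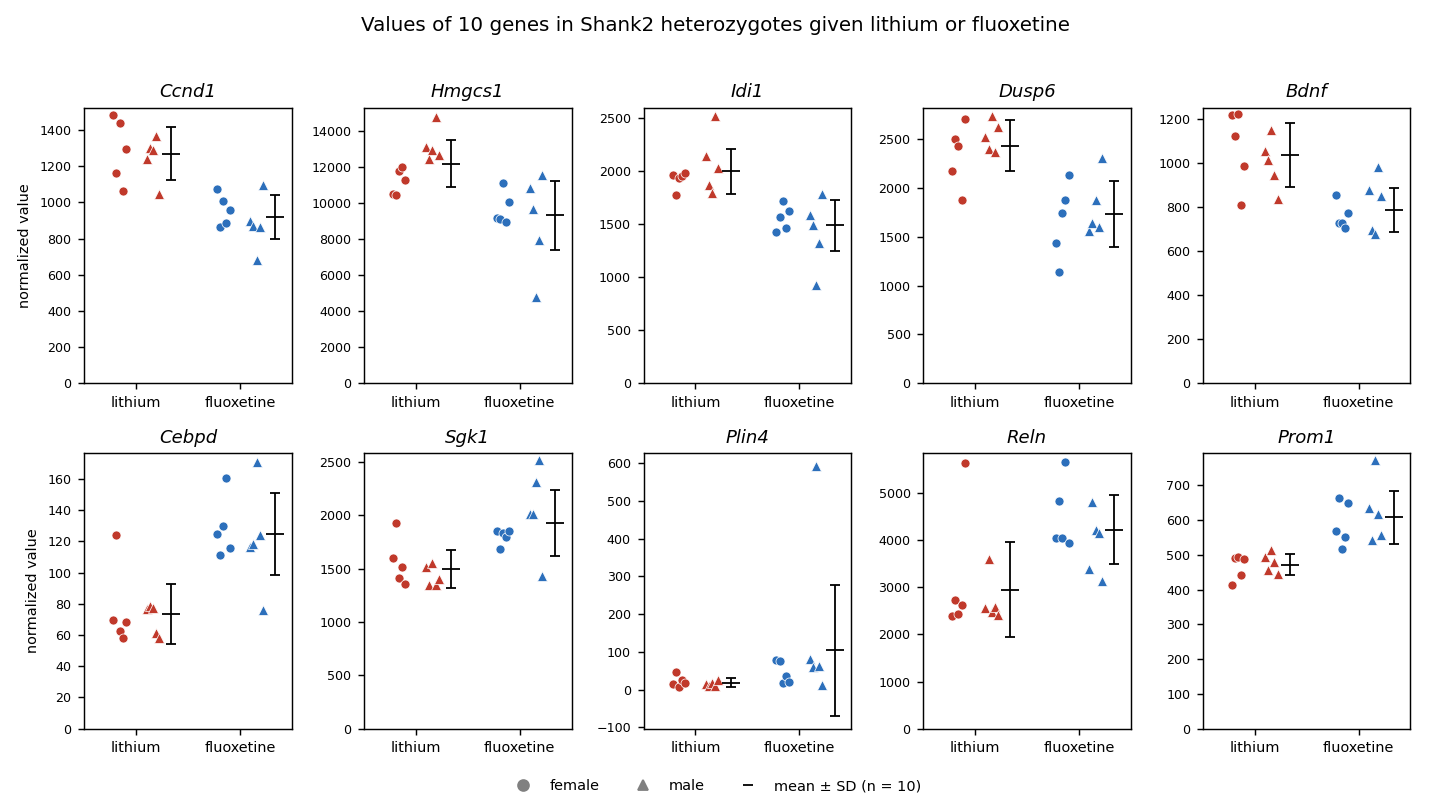
Normalized values of 10 genes in every heterozygous library, lithium left of fluoxetine, circles for females and triangles for males, with mean and SD (n = 10). Prom1 shows no overlap between the drugs, and the fluoxetine value of 593 for Plin4 is HT fluoxetine male 3.

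Several genes that glucocorticoids raise were lower under lithium. Of 30 target and receptor genes 8 were lower and 0 higher, which is 26.7% against 0.486% of all genes called lower. The difference was negative for 27 of 30, with a median of -0.32 on the log2 scale. Cebpd, Ddit4, Tmem252 and Smox had been put on the list with their earlier results known. Without these 4, 6 of 26 were lower, 23 were negative and the median was -0.23.

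Cebpd, a transcription factor of the stress and inflammatory response (ENSMUSG00000071637, chromosome 16, 15887286 to 15891031), ran from 58.1 through 69.1 to 124 under lithium and from 76.1 through 121 to 171 under fluoxetine. The lithium value of 124, in HT lithium female 2, stood apart from the others, which reached at most 78.4. The log2 difference was -0.76 ± 0.12 (adjusted p = 0.000401), -0.78 in females and -0.74 in males, and it passed with each library left out. In wild type it was -0.16 (adjusted p = 0.7), and the difference between the genotypes did not pass.

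Sgk1, the kinase gene whose promoter is shown above, ran from 1343 through 1460 to 1926 under lithium and from 1426 through 1850 to 2520 under fluoxetine (log2 difference -0.36, adjusted p = 0.0224). Plin4, a coat protein of lipid droplets, ran from 8.38 through 15.5 to 48 under lithium and from 13.3 through 62.7 to 593 under fluoxetine (-1.64 ± 0.38, adjusted p = 0.0224). The value of 593 belongs to HT fluoxetine male 3, and the next was 80.9. Without this library the adjusted p was 0.0624 for Sgk1 and 0.0653 for Plin4. Sgk1 passed in 18 of 20 runs with a library left out, losing the call also without HT fluoxetine male 4. Plin4 passed in 16, losing it also without HT fluoxetine female 1, HT fluoxetine female 2 and HT lithium female 3.

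The metallothioneins Mt1 and Mt2, which bind zinc and copper, were lower by -0.44 (adjusted p = 0.0224) and -0.51 (adjusted p = 0.0487). Mt1 averaged 2256 ± 257 under lithium and 3168 ± 1053 under fluoxetine. Nfkbia, the inhibitor of NF-kappa-B (-0.36), Ddit4, an inhibitor of mTOR (-0.33), and the sestrin Sesn1 (-0.23) passed as well. Fkbp5 (-0.61) and Tsc22d3 (-0.34), which are widely used readouts of the hormone, did not pass (adjusted p = 0.112 and 0.114), nor did the receptor gene Nr3c1 (0.20, adjusted p = 0.169). Dusp1, another target, differed by 0.32 in the opposite direction without passing. Of 20 runs with a library left out, Nfkbia passed in 16, Sesn1 in 15, and Mt2 and Ddit4 in 5 each. FOXO targets, which overlap this list, had 2 of 20 lower (10% against 0.486% of all genes), Sesn1 and Cited2 (-0.32, adjusted p = 0.0328), with a median of -0.06. Cited2 passed in 14 of 20 runs with a library left out. Its adjusted p was 0.107 without HT fluoxetine male 3, and its difference was -0.14 (adjusted p = 0.317) with striatal and olfactory bulb marker levels in the fit.

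**Figure D4:**
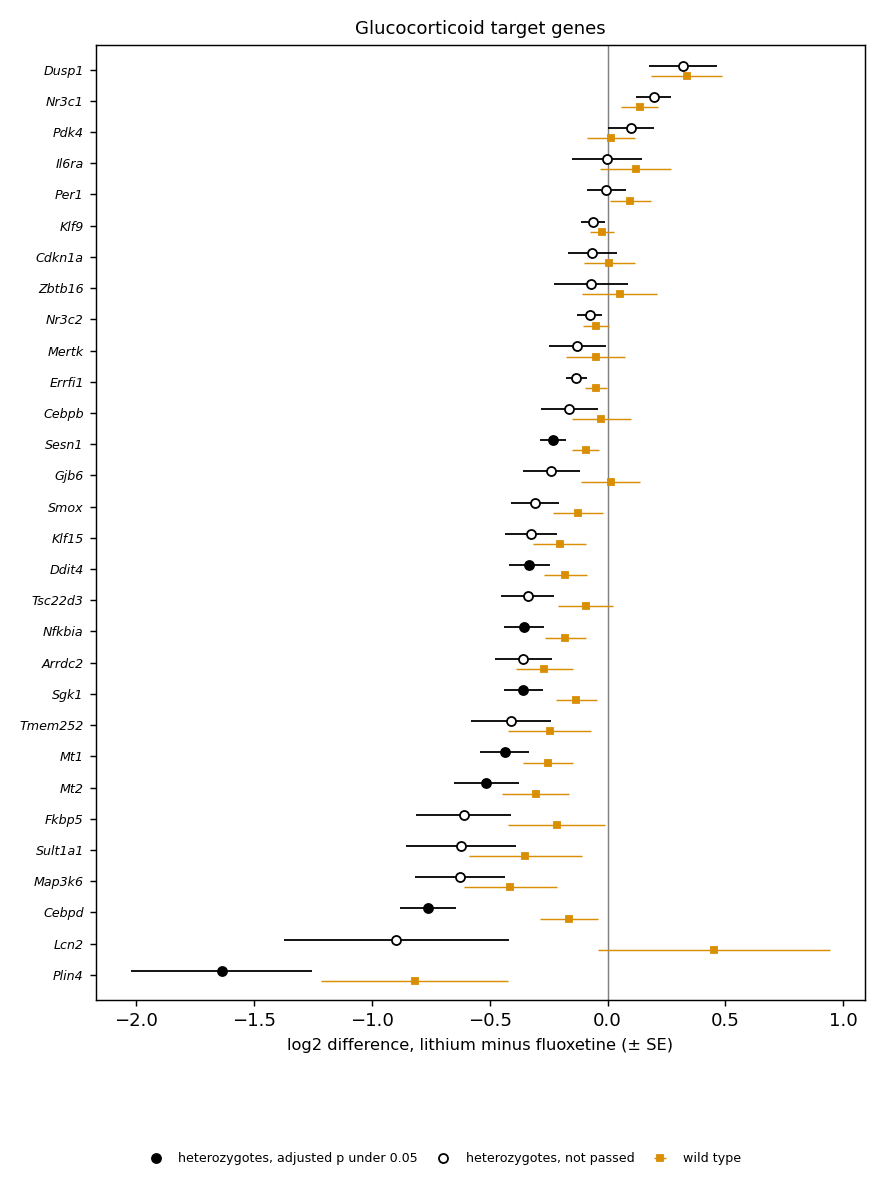
Log2 difference, lithium minus fluoxetine, with its SE for the 30 glucocorticoid target genes, drawn as for cholesterol synthesis. The 8 filled circles lie left of 0, from -0.23 (Sesn1) to -1.64 (Plin4).

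Without HT fluoxetine male 3, 1 of the 30 was called, Cebpd, and the median was -0.27. Without HT fluoxetine male 5, which had the lowest fluoxetine value of Cebpd and Tsc22d3, 15 were called. Without HT fluoxetine female 1, female 2 or male 4, or HT lithium female 3 or male 3, 4 were called, and 5 without HT lithium female 5 or male 1. The list median was -0.11 in females, -0.38 in males and -0.09 in wild type, where 0 of 30 were called. A fit of the 20 libraries alone called 1 of the 30.

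Reln, the extracellular protein of Cajal-Retzius cells, of a class of interneurons and of olfactory bulb mitral cells (ENSMUSG00000042453, chromosome 5, 21884454 to 22344702), was lower under lithium by -0.55 ± 0.12 (adjusted p = 0.02). Its values ran from 2397 through 2581 to 5629 under lithium and from 3131 through 4101 to 5658 under fluoxetine. The lithium libraries with 5629 and 3597, HT lithium female 5 and male 2, are the 2 lithium libraries with olfactory bulb markers above 0. With striatal and olfactory bulb marker levels in the fit the difference was -0.25 (adjusted p = 0.0566). Of 20 interneuron markers Reln alone was called, which is 5% against 1.06% of all genes. Their level per library differed by -0.21 (permutation p = 0.0142, 0.121 after adjustment). Among lithium libraries this level lay above 0 only in HT lithium female 5 (0.36) and male 2 (0.09), the same 2 libraries. The highest fluoxetine level (0.30) was in HT fluoxetine female 4, which also had the highest bulb level of that group (1.34). Whether the interneuron level follows bulb tissue was not tested. Chrna10, a nicotinic receptor subunit, ran from 0 through 6.03 to 57.6 under lithium and from 6.23 through 27.9 to 146 under fluoxetine. Its difference of -2.03 (adjusted p = 0.0454) was -0.70 (adjusted p = 0.321) in that fit, and its adjusted p was 0.118 without HT fluoxetine male 3. That fit called 113 genes, 60 of them among the 177, with 40.7% of calls higher against 54.2%. It called 10 cholesterol and 5 glucocorticoid genes. In it Ccnd1 differed by 0.43 (adjusted p = 0.00257), Dusp6 by 0.47 (adjusted p = 0.0221) and Cebpd by -0.77 (adjusted p = 0.00257), and all 3 passed.

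Of 24 glutamate receptor genes 2 passed (8.33%), and of 39 postsynaptic genes 1 (2.56%), against 1.06% of all genes. Grm3, a presynaptic and glial metabotropic receptor, was higher (0.36, adjusted p = 0.0342), and Grin2d, an NMDA receptor subunit prominent in interneurons, was lower. Grin2d averaged 600 ± 64.2 under lithium and 725 ± 65.4 under fluoxetine (-0.27 ± 0.06, adjusted p = 0.02). Cacng3, an auxiliary protein of AMPA receptors, averaged 4998 ± 466 under lithium and 4180 ± 253 under fluoxetine (0.25, adjusted p = 0.0355) and was the postsynaptic call. Without HT fluoxetine male 3 Grin2d passed (adjusted p = 0.0452), while Grm3 and Cacng3 did not (0.109 and 0.0939). With striatal and olfactory bulb marker levels in the fit, Grin2d differed by -0.19 (adjusted p = 0.102), Cacng3 by 0.16 (adjusted p = 0.247) and Grm3 by 0.27 (adjusted p = 0.162).

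Pnck, Hpca and Cdkl2 passed in both genotypes. Pnck, a calcium/calmodulin-dependent kinase, averaged 1375 ± 157 under lithium and 1674 ± 164 under fluoxetine in heterozygotes (-0.29 ± 0.05, adjusted p = 0.00374) and differed by -0.36 in wild type (adjusted p = 0.000284). Hpca, the calcium sensor hippocalcin, differed by -0.20 in heterozygotes (adjusted p = 0.036) and -0.34 in wild type (adjusted p = 0.000284). Cdkl2, a cyclin-dependent kinase-like gene, differed by 0.20 in heterozygotes (adjusted p = 0.0134) and 0.28 in wild type (adjusted p = 0.000284). The adjusted p of Hpca in heterozygotes was 0.0954 without HT fluoxetine male 3. Cdkl2 differed by 0.13 (adjusted p = 0.0962) with striatal and olfactory bulb marker levels in the fit.

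Of 23 microglial genes Aif1 alone passed (0.41, adjusted p = 0.0251), which is 4.35% against 1.06% of all genes. The difference was positive for 21 of them, with a median of 0.18 in heterozygotes and -0.02 in wild type. The microglial level per library differed by 0.20 (permutation p = 0.11, 0.385 after adjustment) and the endothelial level by 0.16 (permutation p = 0.026, 0.121 after adjustment), and neither passed. Aif1 averaged 104 ± 14.1 under lithium and 78.5 ± 14.8 under fluoxetine. P2ry12, a receptor of resting microglia, differed by 0.49 without passing (adjusted p = 0.093). The summed microglial value ran from 17897 to 23524 in lithium and from 10598 to 20381 in fluoxetine libraries, and the lowest was HT fluoxetine male 3. Without that library the list median was 0.07 and Aif1 had an adjusted p of 0.0782. None of 18 endothelial genes on the list passed. Icam2, an adhesion protein of endothelium (0.66, adjusted p = 0.0479), the transcription factor Sox7 (0.47) and Nes, the filament nestin (0.51), were among the largest rises and lost the call without that library (adjusted p = 0.13, 0.141 and 0.13). The iron exporter gene Slc40a1 (0.48) did so too (adjusted p = 0.0587).

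Some genes outside these groups separated the drugs without overlap, though the gap could be narrow, as for Prom1 and Erfe. In 6 of 16659 genes, 0.036%, the lithium and fluoxetine libraries did not overlap. Prom1, the membrane protein prominin 1, ran from 414 through 484 to 515 under lithium and from 516 through 593 to 774 under fluoxetine (-0.36 ± 0.07, adjusted p = 0.00553). Btbd2 ran from 1845 through 2085 to 2195 under lithium and from 2289 through 2387 to 2727 under fluoxetine (-0.22 ± 0.04, adjusted p = 0.000604). Both were named after their values were seen. Erfe, erythroferrone, a hormone that lowers hepcidin, was low and ran from 18.3 through 21.6 to 34.6 under lithium and from 11.8 through 14.2 to 17.8 under fluoxetine (0.65, adjusted p = 0.0425, and 0.081 without HT fluoxetine male 3). The others without overlap were Gm16536, Ccar2 and C030005K06Rik.

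Gm19439, a gene with a predicted name and no described product here, averaged 41.5 ± 19.6 under lithium and 115 ± 34.4 under fluoxetine (-1.53 ± 0.24, adjusted p = 0.000436), and passed with each library left out. The remaining large falls were in genes of low value, namely Ltbp2 (-1.38), Slc9a4 (-1.30), Tcp11 (-1.28), Tekt4 (-1.27), Acer2 (-0.65), Galnt15 (-0.64), Alox12b (-0.62), Plekhf1 (-0.61) and Xrcc3 (-0.59). Of these, Plekhf1 alone passed without HT fluoxetine male 3 (adjusted p = 0.0125). With striatal and olfactory bulb marker levels in the fit, it differed by -0.50 (adjusted p = 0.0729), Slc9a4 by -0.61 (adjusted p = 0.164) and Xrcc3 by -0.34 (adjusted p = 0.179). The remaining rises were Cyp2r1 (0.78), which hydroxylates vitamin D, and Aldh1a7 (0.45), and neither passed without that library.

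By sex, 0 genes passed in females and 180 in males (1.08%), of which 93 were higher (0.558%) and 87 lower (0.522%). At an unadjusted p under 0.05 there were 1555 genes in females and 2734 in males. The count in males was 0 without HT fluoxetine male 3 and 641 without HT fluoxetine male 5. No gene passed for the difference between the sexes, with 1629 at an unadjusted p under 0.05 (limma). The median difference of the 96 higher genes was 0.22 in females and 0.31 in males, and that of the 81 lower genes -0.23 in females and -0.29 in males. These medians are fixed in part by the choice of genes on the mean of the sexes.

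In wild type, 37 genes passed (0.222%), 22 higher and 15 lower, and 17 genes passed in both genotypes. The wild type count was 4 without WT lithium female 4 and 5 without WT lithium male 3. Of the 177 genes called in heterozygotes, 168 (94.9%) had the same sign in wild type, against 65.2% of all genes tested. An unadjusted p under 0.05 with the same sign was reached by 93 (52.5%), against 8.62% of all genes. Olfactory bulb and striatal marker levels were also lower under lithium in wild type, by -0.34 and -0.26. Whether tissue content bears on the equal signs was not tested. The higher genes had a median of 0.28 in heterozygotes and 0.14 in wild type, and the lower genes -0.25 and -0.14. Choosing genes in heterozygotes raises the size of their heterozygous medians in part. Other reasons for the larger medians were not tested. No gene passed for the difference between the genotypes (limma), and 634 did so at an unadjusted p under 0.05. The 9 genes of opposite sign included Erfe, with 0.65 in heterozygotes and -0.26 in wild type.

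**Figure D5:**
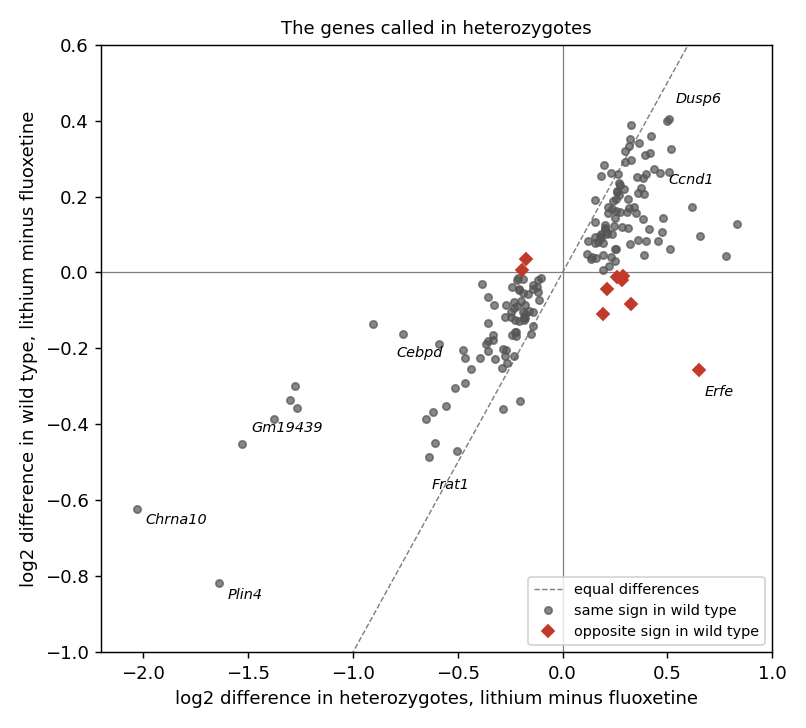
Log2 difference, lithium minus fluoxetine, in heterozygotes (horizontal) and wild type (vertical) for the 177 genes called in heterozygotes. Most points lie in the quadrants of equal sign and nearer to 0 in wild type, and the 9 diamonds have opposite signs.

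Called genes were more abundant than the rest, with a median value of 1460 for the higher and 1340 for the lower genes, against 547 over all genes tested. On the X chromosome lay 5 of 96 higher and 6 of 81 lower genes, against 3.32% of all. The median transcript length was 1842 bases for the higher and 1705 for the lower genes, and 1560 over all.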

How the data were processed

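RNA of mouse prefrontal cortex was measured in 57 libraries. Per the labels' protocols the libraries were stranded and made from poly(A) RNA. Salmon 0.11.2, DESeq2 1.19.11 and R 3.6.0, with GRCm38, are named in the submitters' processing notes. For the annotation release, filters and strand setting, the step is not stated in the labels. The signal values deposited by the authors are normalized estimated counts, not whole, for 51456 gene IDs, of which 51285 matched GENCODE vM21. Sequencing depth is therefore unknown, and no interval that needs it is given. Reads of a gene and of an overlapping antisense gene, as at Cebpd, Plin4, Cyp51, Ccnd1 and Erfe, cannot be told apart without the strand setting.

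Genes with a mean of at least 10 (16659) were tested on log2(value + 1), a scale that understates changes of low genes, using limma 3.58.1 (trend and robust options on, R 4.3.3). All 57 libraries entered 1 fit of 12 groups of genotype, drug and sex. In the fit, vehicle libraries contribute only to the estimate of spread. Outside it, vehicle libraries also enter the mean used to filter genes and the mean about which marker levels are given. The difference is lithium minus fluoxetine, averaged over females and males, and p-values carry a Benjamini-Hochberg adjustment with a threshold of 0.05. The method was tested on simulated data with independent noise for each gene and library. The simulation held no outlying library, no litters and no tissue content that varied between libraries, so it cannot speak to their effect. Marker levels per library were compared by permutation with 100000 resamples. The labels do not say that replicates came from separate mice or litters, so p-values measure the spread between these libraries, which may be technical. The drug was given to the dam, so pups of 1 dam would not be independent replicates of the drug. Litter and drug could then not be told apart.

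Named genes are Shank2, the drug targets, the 12 largest rises and falls and up to 4 members by p of each of 45 lists. Frat1, Prom1, Btbd2, Gm19439 and further list members were named after their values were seen. The members and lists were chosen with earlier results of these data known. Some members of the cholesterol list are counted with it and are not reported singly here. Same-numbered lithium and fluoxetine libraries were not treated as pairs.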

Additional observations from a re-analysis of the deposited data

Results flagged for a closer look

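Among 188 sets of 10 libraries (80 genes and 14 levels per library, in each drug group), 37 held a library whose gap to the next, as a share of the range, passed the 95% critical value of Dixon. Chance gives about 1 in 20. HT fluoxetine male 3 accounts for 21 of them.

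It was the lowest fluoxetine library for Ccnd1 (683.9), for the sterol genes Stard4 (395), Idi1 (927.5), Hmgcs1 (4791), Cyp51 (1146), Msmo1 (821.1), Nsdhl (420.6), Fdps (894.7), Insig1 (1254), Sc5d (1656) and Srebf2 (4302), and for the desaturase Scd1 (2728). It was also lowest for Grm3 (1192), P2ry12 (242.3), Icam2 (11.24) and Slc40a1 (172.1). It was the highest for Mapk3 (6463), Plin4 (593), Cited2 (1256), Btbd2 (2727) and Tcp11 (70.41).

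Other libraries stood apart for fewer genes. HT lithium female 2 was highest for the glucocorticoid targets Cebpd (124), Sgk1 (1926), Sesn1 (1950) and Fkbp5 (2013), and lowest for Nsdhl (652). HT fluoxetine male 5 was lowest for Cebpd (76.12) and Tsc22d3 (1366). HT lithium male 4 was highest for Idi1 (2516) and Cyp51 (3185). HT lithium female 5 was highest for Reln (5629) and lowest for Hpca (8037). HT lithium female 1 was highest for Aif1 (139) and for the microglial level (0.3351), and lowest for Gsk3b (6572) and for the trend with transcript length (-0.1052). HT lithium male 5 was lowest for Icam2 (41.3).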

How the results depend on the processing

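The count of 177 genes depended on which libraries set the spread. It was 30 with the 20 compared libraries alone, 404 with the 39 lithium and fluoxetine libraries of both genotypes, and 364 without WT vehicle male 2, a setting added after seeing the data. It was 75 with no filter on low values and 113 with striatal and olfactory bulb marker levels as covariates. The count of 180 in males was 2, 292, 357 and 89 under the first 4 of these settings, and 42 with microglial, endothelial and blood marker levels as covariates, also added after seeing the data. In wild type the count of 37 was 69 in the fit of 39 libraries, 56 without WT vehicle male 2, 19 with no filter, 23 without trend and robust moderation and 88 with the trend with transcript length as a covariate. That covariate gave 1 gene for the difference between the sexes. The cause was not tested. Pseudocounts, rescaling, quantile normalization and a minimum mean of 50 left the heterozygous count between 174 and 251.

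With 1 library left out, the heterozygous count ran from 53 to 493. It was 53 without HT fluoxetine male 3, 59 without HT fluoxetine female 1, 71 without HT lithium male 3, 82 without HT lithium male 1, 88 without HT fluoxetine female 2 or male 4, 111 without HT lithium female 3 or male 4, and 493 without HT fluoxetine male 5. The range was 0 to 641 in males, 0 to 5 in females, 0 to 1 for the difference between the sexes, 4 to 50 in wild type and 0 for the difference between genotypes. The wild type count was 4 without WT lithium female 4 and 5 without WT lithium male 3.

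With replicate number as a block, 0 genes passed over both sexes (2440 at an unadjusted p under 0.05) and 0 in males. Correlations of same-numbered libraries ran from -0.044 to 0.137, with 1 of 10 over 0.1, and 2 of 10 lithium libraries correlated best with their own number, so the numbers were not taken as pairs.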
